A study of Mus musculus with 22 samples.

Results

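The 6 genes Bpifa2, Obp1a, Ltf, Pigr, Lcn2 and Klk1, whose proteins are secreted by, or work in, the glands around the eye were followed across leg muscle and extraocular muscle (EOM, the small muscles that move the eyeball) of Balb and SJL mice. Every probe set annotated with one of these 6 symbols and no other was taken, which gave 6 of 8251 genes and 8 of 12422 probe sets, controls left out: 1 each for Bpifa2, Obp1a, Ltf and Pigr, and 2 each for Lcn2 (suffixes _at and _r_at) and Klk1 (suffixes _i_at and _f_at). The suffix _f marks probes shared within a gene family, _i a set with fewer probes and _r one built under relaxed rules. The genes were put together because earlier results of the same arrays had shown gland products in the eye samples, so they were chosen by their intensities in EOM against leg, and that comparison is given here as a description with no test. The strain and age comparisons are tested, though a lower level of related gland genes in SJL EOM was also known.

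RNA was measured on 22 Affymetrix arrays in 8 groups: leg muscle and EOM of Balb and of SJL mice at 10 months and at 12 months. Each group held 3 arrays, apart from Balb EOM and SJL EOM at 12 months with 2 each. The labels name a strain, a muscle and an age, with total RNA as the material, and give no genotype, sex, treatment or count of animals. SJL mice are known to carry a mutation of the dysferlin gene and to develop a muscular dystrophy. The labels do not say that replicates came from separate animals, so p-values measure only the spread between these samples, which may be technical.

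The orbit holds the lacrimal gland and the Harderian gland beside the eye muscles, and the mucosa of the conjunctiva lies over them. Gland acini secrete proteins that bind small lipids and odorants, starve microbes of iron and cut other proteins, while their epithelium carries antibodies from plasma cells into the fluid. Bpifa2 (also known as parotid secretory protein) belongs to the BPI fold family of saliva and mucosal fluids. Obp1a is an odorant-binding lipocalin of nasal and lacrimal secretions. Ltf (lactoferrin) binds iron in tears and milk and is also stored in neutrophil granules, and Lcn2 binds bacterial iron carriers and is made by both epithelium and neutrophils. Pigr is the receptor that moves dimeric IgA across epithelium, and Klk1 (tissue kallikrein) is a serine protease of salivary glands, kidney and other organs. In bulk RNA a smaller share of gland cells and less RNA per gland cell cannot be told apart.

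Of the 6 genes, all had an entry in the RefSeq promoter table (build GRCm38.p6). The 250 bases before the annotated start are shown for Obp1a and for Gm14743, a neighbour on chromosome X whose probe set had the highest Pearson r with Obp1a over the EOM arrays. Only the protein-coding genes Gm5938 and Obp1b lie between them in that annotation. Capitals mark the motif TATAAAA, searched on both strands.
Obp1a (chrX:78091375-78091624, minus strand): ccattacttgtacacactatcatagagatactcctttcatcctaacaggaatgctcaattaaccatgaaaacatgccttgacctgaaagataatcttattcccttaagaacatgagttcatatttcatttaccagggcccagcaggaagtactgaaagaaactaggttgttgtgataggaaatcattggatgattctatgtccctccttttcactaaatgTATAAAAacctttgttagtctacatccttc
Gm14743 (chrX:78245922-78246171, minus strand): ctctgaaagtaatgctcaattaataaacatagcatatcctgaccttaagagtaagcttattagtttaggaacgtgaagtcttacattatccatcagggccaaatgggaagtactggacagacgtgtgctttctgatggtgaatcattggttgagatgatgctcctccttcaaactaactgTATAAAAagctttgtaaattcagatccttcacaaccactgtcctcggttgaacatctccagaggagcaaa
The motif starts 30 bases before the annotated start of Obp1a and 70 bases before that of Gm14743. Of 32851 windows of this length in the table, 4.98% hold it on either strand, and of the 6 genes only Obp1a does. An alignment end to end gave 53.4% identical columns over 292 columns.

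The same stretch is shown for Klk1 and for its paralog Klk1b1, both on chromosome 7, whose probe sets ran together from array to array. Capitals mark the longest run that both share, of 15 bases.
Klk1 (chr7:44225110-44225359, plus strand): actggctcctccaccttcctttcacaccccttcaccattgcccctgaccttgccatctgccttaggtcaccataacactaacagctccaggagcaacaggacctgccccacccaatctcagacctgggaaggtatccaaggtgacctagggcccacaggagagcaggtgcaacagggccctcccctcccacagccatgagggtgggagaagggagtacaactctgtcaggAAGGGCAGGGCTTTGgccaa
Klk1b1 (chr7:43966501-43966750, plus strand): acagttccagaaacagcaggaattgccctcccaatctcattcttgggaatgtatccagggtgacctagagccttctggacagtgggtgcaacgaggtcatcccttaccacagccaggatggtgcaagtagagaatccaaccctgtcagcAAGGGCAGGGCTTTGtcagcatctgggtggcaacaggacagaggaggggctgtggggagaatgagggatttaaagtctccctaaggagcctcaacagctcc
The run starts 20 bases before the annotated start of Klk1 and 101 bases before that of Klk1b1, and the alignment had 52.7% identical columns over 279. These are sequences of the reference genome, not of the Balb or SJL strain.

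The values are linear intensities that the authors had scaled, with a trimmed mean between 1500.8 and 1501.1 on every array. Muscle genes bore out the muscle labels: Myh3 (embryonic myosin, kept in adult EOM) read 5892 to 17488 in EOM and 175 to 727 in leg, and Myom2 (an M-line protein of limb fibres) read 157 to 598 in EOM and 4579 to 24113 in leg. The position gene Hoxc9 read 9.4 to 249 in EOM and 815 to 1301 in leg. The general muscle genes Acta1 and Ckm overlapped between the muscles, with Acta1 at 4066 to 56683 in EOM and 617 to 78675 in leg, and Ckm at 9103 to 38442 and 10007 to 63428. The 4 arrays numbered 1 at 10 months stood apart, with a 3 prime to 5 prime ratio for Actb, a sign of RNA quality, of 5.05 to 53.7 against 0.847 to 1.93 on the other 18 arrays. The same ratio for Gapdh was also high on SJL EOM replicates 2 and 3 at 10 months (6.71 and 4.66), where Balb EOM replicates 2 and 3 read 1.14 and 1.54. Leaving out the 4 arrays with high Actb ratios does not remove that difference between the strains. Its part in the strain values was not tested. The median intensity of an array was 566 to 651 at 10 months and 426 to 562 at 12 months, with no overlap. A difference by age therefore cannot be told apart here from a difference between the 2 sets of arrays.

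**Figure D1:**
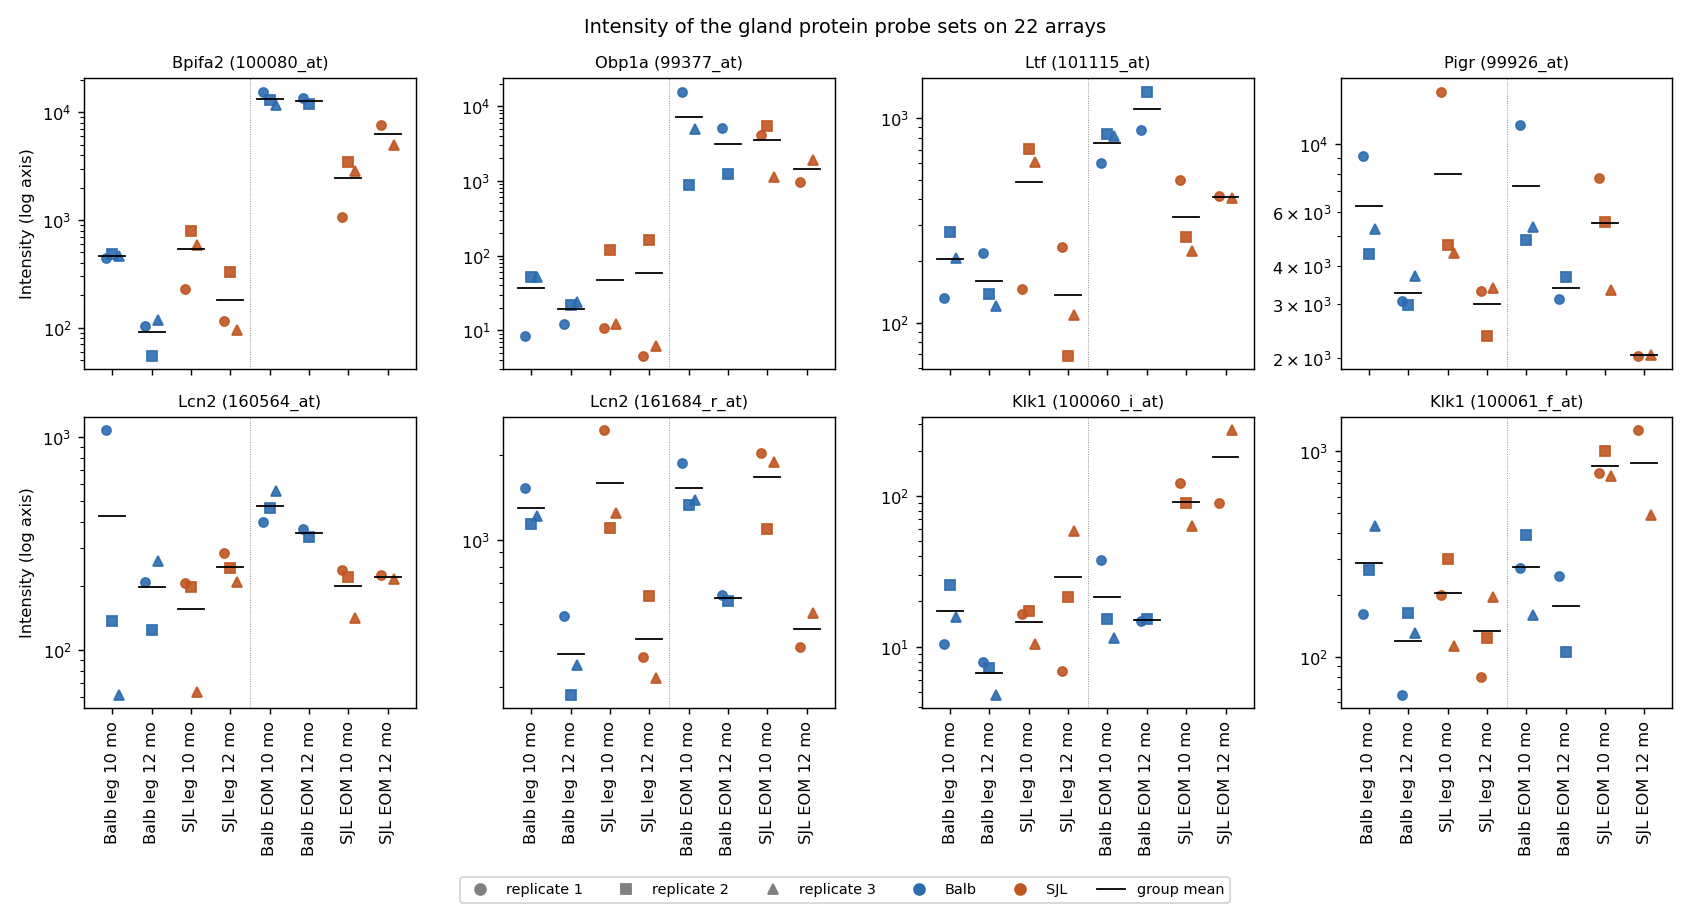
Intensity (log axis) of the 8 probe sets on the 22 arrays, by group, with replicate number as marker, strain as colour and the group mean as a bar. Bpifa2 and Obp1a lie higher on every EOM array (from 1057 and 869) than on every leg array (up to 792 and 164), while Pigr and both Lcn2 probe sets overlap between the muscles.

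Bpifa2 was high in all EOM samples and lower in SJL than in Balb EOM. The 5 Balb EOM arrays read 15600, 13114 and 11707 at 10 months and 13674 and 11869 at 12 months. The 5 SJL EOM arrays read 1057, 3486 and 2848 at 10 months and 7576 and 4961 at 12 months. Balb EOM arrays therefore sat close together and above every SJL EOM array, and the SJL arrays were spread more widely. In leg muscle the 12 arrays read from 54.3 to 792, with a median of 278. Group means ran from 13474 ± 1970 (SD, n = 3) in Balb EOM at 10 months and 12771 ± 1280 (n = 2) at 12 months, through 6268 ± 1850 (n = 2) in SJL EOM at 12 months and 2464 ± 1260 (n = 3) at 10 months, to 92.1 ± 33.6 (n = 3) in Balb leg at 12 months. The Balb EOM groups overlapped each other, whereas each SJL EOM group was separate from its neighbours in this order. In leg the order was SJL at 10 months, Balb at 10 months, SJL at 12 months and Balb at 12 months, and overlap was seen between the first pair and between the last pair.

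On the log2(intensity + 16) scale Bpifa2 was lower in SJL than in Balb EOM, by -1.83 (SE 0.38, limma adjusted p = 0.0234, both ages weighted equally), and all 5 SJL arrays lay below all 5 Balb arrays. At 10 months alone the difference was -2.60 (SE 0.49, limma adjusted p = 0.0216). At 12 months it was -1.05 (SE 0.60, 95% interval -2.31 to 0.20, limma adjusted p = 0.948). In SJL EOM the 12-month arrays lay above the 10-month arrays, with a difference of 1.48 (SE 0.54, limma adjusted p = 0.0753) that did not pass. The age difference in SJL minus that in Balb EOM, 1.55 (SE 0.77, limma adjusted p = 1), did not pass either. The strain difference in leg minus that in EOM was 2.20 (SE 0.52), with a limma adjusted p = 0.16, so a strain difference particular to EOM was not shown with all arrays. Without the 4 arrays with high Actb ratios that value was 2.13 (limma adjusted p = 0.0102), the strain difference in EOM was -1.51 (adjusted p = 0.00431), and at 10 months it was -1.97 (adjusted p = 0.0121).

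The call for Bpifa2 in EOM over both ages was lost when any one of the 4 EOM arrays at 12 months was left out, with limma adjusted p = 0.118 and 0.105 without Balb replicates 1 and 2, and 0.0559 and 0.12 without SJL replicates 1 and 3. It was also lost, at adjusted p = 0.0605, when only the EOM groups were fitted. The 10-month call was lost without any one Balb array (limma adjusted p = 0.0649 to 0.0815) or without SJL replicate 1 (0.0868), and was 0.508 in a fit of only the 10-month EOM groups. At 12 months the difference passed in a fit of only the 12-month EOM groups, with limma adjusted p = 0.0461. The direction was the same in each of these fits.

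Over the 10 EOM arrays the probe sets most like Bpifa2 were Nnt (Pearson r = 0.934), Tfb2m (0.898) and Rbpms (0.891). Nnt is a proton-pumping transhydrogenase of mitochondria, Tfb2m a mitochondrial transcription factor and Rbpms an RNA-binding protein. These 3 were picked for the highest r among the tested probe sets, share the same arrays and have no test. With the 2 arrays farthest from the Bpifa2 median left out, r was 0.941, 0.93 and 0.649. With each group's mean removed, r was 0.51, 0.154 and 0.639. Over all 22 arrays r was 0.287, -0.145 and 0.472. Nnt and Tfb2m had lower means in SJL than in Balb leg too (5669 against 12363, and 692 against 2571), where Bpifa2 had 358 against 279.

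Obp1a was far higher in EOM than in leg and varied widely within EOM. Balb EOM arrays read 15638, 869 and 4992 at 10 months and 5045 and 1218 at 12 months. SJL EOM arrays read 4140, 5432 and 1113 at 10 months and 955 and 1887 at 12 months. The strains overlapped, with the highest arrays reaching further up in Balb, and within Balb EOM at 10 months the highest array was far above the lowest. The 12 leg arrays lay between 4.5 and 164, with a median of 17. The EOM group means ran from 7166 ± 7620 (SD, n = 3) in Balb at 10 months over 3562 ± 2220 (n = 3) in SJL at 10 months and 3131 ± 2710 (n = 2) in Balb at 12 months to 1421 ± 659 (n = 2) in SJL at 12 months, and each overlapped the next. The leg groups, with means from 19.2 to 58.2, overlapped one another too. The strain difference in EOM was -0.68 (SE 0.80, 95% interval -2.36 to 1.00, limma adjusted p = 0.968), and without the 4 arrays with high Actb ratios it was -0.32 (adjusted p = 0.855). The interval leaves room for a fall and for a rise, and no age difference of Obp1a passed in either strain.

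From array to array Obp1a ran with Gm14743 (Pearson r = 0.91 over 10 EOM arrays), Mup3 (0.894) and Mup5 (0.883). Mup3 and Mup5, on chromosome 4, encode major urinary proteins, lipocalins that bind pheromones. Gm14743 read 37263, 10807 and 21003 in Balb EOM and 31746, 25136 and 6974 in SJL EOM at 10 months, and 17633, 9928, 8907 and 9730 at 12 months. Its high and low arrays were largely those of Obp1a, and in leg it read 40.2 to 531. Mup5 read 12995, 1682 and 7818 in Balb EOM at 10 months, with its own highest array the one that was highest for Obp1a. With each group's mean removed the r values were 0.898 (Gm14743), 0.93 (Mup3) and 0.951 (Mup5), so the likeness was also seen within groups, where both Mup sets were closer to Obp1a than Gm14743 was. By Spearman's rho over the same arrays Mup5 (0.867) also came before Mup3 (0.83) and Gm14743 (0.77). Without the 2 arrays farthest from the Obp1a median r was 0.903, 0.847 and 0.809. The Mup probe sets are of a type whose probes match several genes of a family, so their signal cannot be given to 1 gene. Bpifa2 and Obp1a did not run together over the same arrays (r = 0.073).

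**Figure D2:**
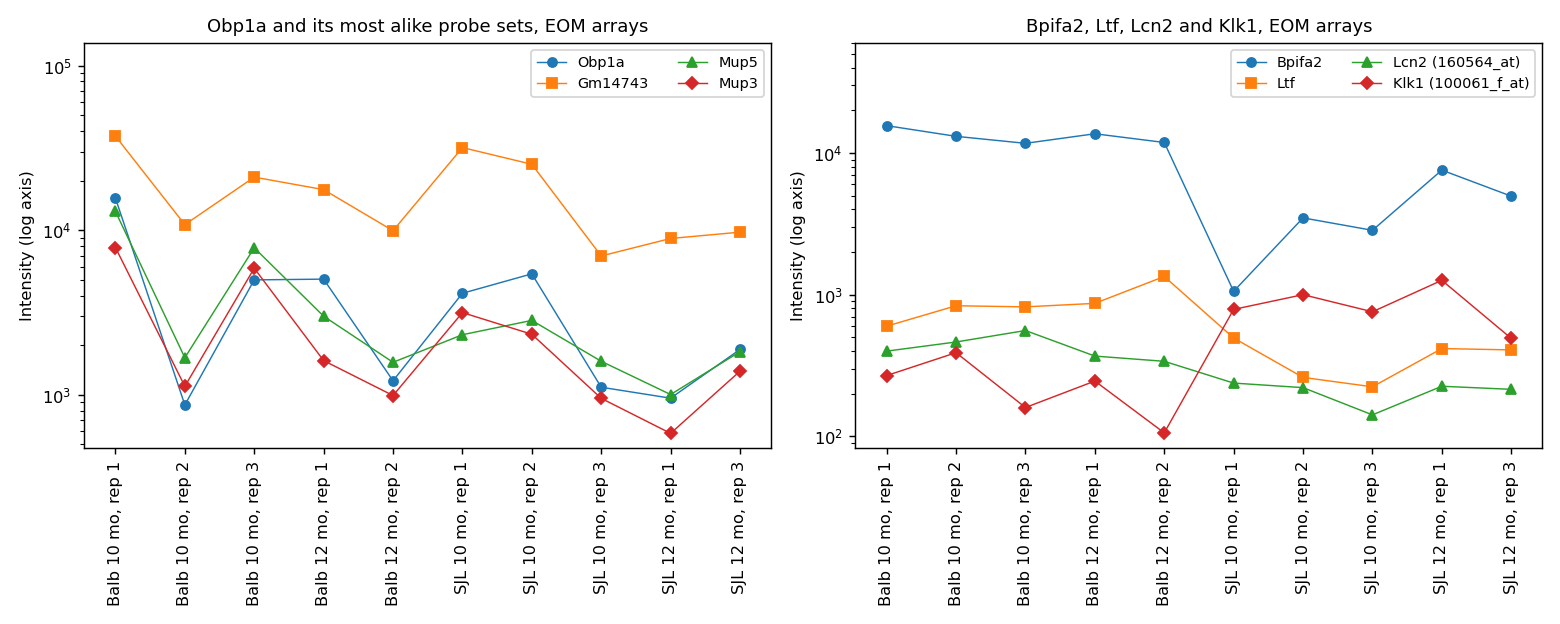
Intensity (log axis) on each of the 10 EOM arrays, with lines drawn only to guide the eye. Left, Obp1a with Gm14743, Mup5 and Mup3, which share their peaks on Balb 10-month replicate 1. Right, Bpifa2, Ltf and Lcn2 (_at), higher on the 5 Balb arrays, and Klk1 (_f_at), higher on the 5 SJL arrays.

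Ltf, the iron-binding protein of tears, had its highest group means in Balb EOM. Balb EOM arrays read 600, 836 and 821 at 10 months and 869 and 1345 at 12 months, and SJL EOM arrays read 495, 261 and 224, then 417 and 408. Every Balb EOM array lay above every SJL EOM array. The leg arrays read 68.5 to 709 with a median of 176, and 2 SJL leg arrays at 10 months (611 and 709) exceeded all SJL EOM arrays. By group mean the order was Balb EOM at 12 months (1107 ± 337, SD, n = 2), Balb EOM at 10 months (752 ± 132, n = 3), SJL leg at 10 months (488 ± 301, n = 3) and SJL EOM at 12 months (413 ± 5.94, n = 2), and from the second group on each overlapped the next. The strain difference in EOM was -1.29 (SE 0.41, 95% interval -2.16 to -0.43), with a limma adjusted p = 0.24 that did not pass. Without the 4 arrays with high Actb ratios it passed, at -1.53 (limma adjusted p = 0.00777), and so did the strain difference in leg minus that in EOM, at 2.09 (adjusted p = 0.0215, against 1.63 and 0.675 with all arrays). The most alike probe sets over the 10 EOM arrays were Ccl11 (an eosinophil-attracting chemokine, r = 0.923), Sspn (sarcospan, a membrane protein of muscle, 0.911) and Pla2g12a (a secreted phospholipase, 0.902). With each group's mean removed, r was 0.665, 0.248 and 0.604, and over all 22 arrays it was 0.418, 0.235 and 0.0589. Ccl11, Sspn and Pla2g12a had lower means in SJL than in Balb leg too (758 against 1137, 1690 against 6155 and 3561 against 25096), where Ltf had 313 against 182.

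Lcn2 was read by 2 probe sets that disagreed. The _at probe set read 400, 464 and 559 in Balb EOM at 10 months and 369 and 339 at 12 months, against 238, 221 and 142, then 226 and 215, in SJL EOM. All Balb EOM arrays lay above all SJL EOM arrays, yet the strain difference, -0.92 (SE 0.53, limma adjusted p = 0.749), did not pass in the fit over all groups. The widest spread was in Balb leg at 10 months, from 61.6 to 1072. The group order of this probe set began with Balb EOM at 10 months, Balb leg at 10 months and Balb EOM at 12 months. Each of these EOM groups overlapped the wide leg group between them, and they did not overlap each other. The other 5 groups had means of 156 to 246. The median over the 12 leg arrays was 208.

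The second Lcn2 probe set, _r_at, separated the ages and not the strains. The 10-month arrays read 1089 to 2445 with a median of 1354, and the 12-month arrays read 280 to 633 with a median of 474, in both muscles. In SJL EOM the 3 arrays at 10 months read 2038, 1882 and 1089 and the 2 at 12 months read 414 and 546. The difference, 12 months minus 10 months, was -1.73 (SE 0.38, limma adjusted p = 0.00595). The 12-month arrays lay lower in Balb EOM too, by -1.26 (SE 0.38, limma adjusted p = 0.0515), short of the threshold. Without the 4 arrays with high Actb ratios both passed, at -1.56 (limma adjusted p = 0.00383) in SJL and -1.11 (adjusted p = 0.0332) in Balb. In SJL EOM 12.3% of all probe sets tested were called lower at 12 months, and 7.42% of them had every 10-month array above every 12-month array, so this pattern was common on these arrays. The SJL EOM call was lost without SJL replicate 1 at 12 months (limma adjusted p = 0.0881) and in a fit of only the groups compared (0.0842). Over the 10 EOM arrays r between the 2 probe sets was 0.0691. Most like Lcn2 (_r_at) were Pabpc2 (r = 0.985), Rbm15 (0.98) and Ptk2b (0.975), an RNA-binding pair and a tyrosine kinase.

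Pigr, the antibody carrier, was bright in both muscles and not higher in EOM. Balb EOM arrays read 11552, 4871 and 5364 at 10 months and 3120 and 3675 at 12 months, and SJL EOM arrays read 7719, 5546 and 3338, then 2027 and 2050. Leg arrays read 2352 to 14811 with a median of 4047, against a median of 4273 in EOM. By group mean the 4 groups at 10 months (5534 to 7966) came before the 4 at 12 months (2039 to 3397), and only the last step, from SJL leg to SJL EOM at 12 months, was free of overlap. In each of the 4 groups at 10 months replicate 1, the array with the high Actb ratio, was the highest (9123 in Balb leg, 11552 in Balb EOM, 14811 in SJL leg and 7719 in SJL EOM), and the same held for the Lcn2 (_r_at) set and for 21.2% of all probe sets tested. The part of RNA quality in these values was not tested. The strain difference in EOM was -0.54 (SE 0.34, 95% interval -1.26 to 0.17, limma adjusted p = 0.786). The age differences were -0.98 (SE 0.48, limma adjusted p = 0.244) in Balb EOM and -1.35 (SE 0.48, adjusted p = 0.0663) in SJL EOM, and the second passed without the 4 arrays with high Actb ratios, at -1.07 (adjusted p = 0.0018). Most like Pigr were Bex6 (r = 0.967), Rbl1 (0.962) and Bcas2 (0.96) over the 10 EOM arrays.

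**Figure D3:**
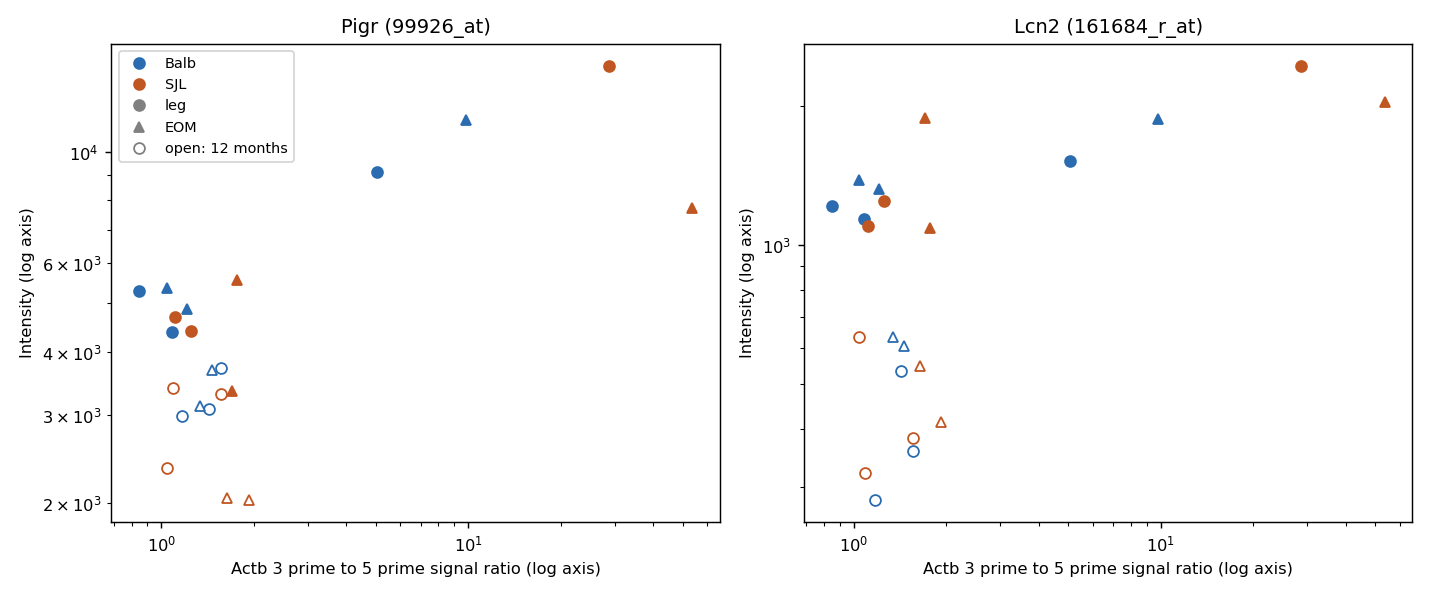
Intensity of Pigr and of Lcn2 (_r_at) on the 22 arrays against the 3 prime to 5 prime ratio of Actb, both axes logarithmic. The 4 arrays with ratios from 5.05 to 53.7 hold the 4 highest Pigr values (7719 to 14811), and the open 12-month symbols lie below the filled 10-month symbols for Lcn2 (_r_at).

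Klk1 ran the other way from Bpifa2: it was higher in SJL than in Balb EOM, with Balb EOM within the range of leg. The _f_at probe set read 788, 1001 and 758 in SJL EOM at 10 months and 1264 and 492 at 12 months, against 269, 390 and 160, then 246 and 106, in Balb EOM. All SJL EOM arrays lay above all Balb EOM arrays, and the 12 leg arrays read 65.2 to 435 with a median of 163. The SJL EOM groups (878 ± 546, SD, n = 2, at 12 months and 849 ± 133, n = 3, at 10 months) overlapped each other and stood above the 6 other groups, whose means of 120 to 287 each overlapped the next. The strain difference in EOM was 1.91 (SE 0.40, limma adjusted p = 0.0232), and 1.95 (adjusted p = 0.014) without the 4 arrays with high Actb ratios. It was 1.65 (SE 0.51, limma adjusted p = 0.394) at 10 months and 2.17 (SE 0.62, adjusted p = 0.222) at 12 months, neither of which passed alone. The strain difference in leg minus that in EOM was -2.07 (SE 0.54, limma adjusted p = 0.305), so a difference between muscles was not shown. The call was lost without Balb replicate 2 or SJL replicate 1 at 12 months (limma adjusted p = 0.196 and 0.202), without Balb replicate 3 or SJL replicate 2 at 10 months (0.0677 and 0.0585), and in a fit of only the EOM groups (0.0963).

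The second Klk1 probe set, _i_at, fell among the 30% with the lowest mean and was left out of the main test. It read 122, 89.9 and 63.1 in SJL EOM at 10 months and 90.5 and 272 at 12 months, against 37.4, 15.3 and 11.5, then 14.8 and 15.4, in Balb EOM. The 12 leg arrays read 4.8 to 58.6. In the fit with no filter its strain difference in EOM was 2.02 (SE 0.34, limma adjusted p = 0.00308). Both probe sets therefore had every SJL EOM array above every Balb EOM array and above every leg array. Klk1 lies on chromosome 7 with 13 protein-coding Klk1b genes, and the _f_at set is of the type whose probes match several family members. The paralog Klk1b1 was also its most alike probe set (r = 0.949, and 0.96 without the 2 farthest arrays): it read 1263 to 2179 in SJL EOM and 279 to 726 in Balb EOM, with a strain difference of 1.78 (SE 0.32, limma adjusted p = 0.00534). Which of these genes gave the signal cannot be told apart. After it came Limk2 (a kinase of the actin skeleton, r = 0.924) and Tnnt1 (slow muscle troponin T, 0.922), whose r with each group's mean removed was 0.717 and 0.575.

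Over the 7 probe sets that passed the filter on low values, 1 was called lower in SJL EOM (Bpifa2) and 1 higher (Klk1), where 0.564% and 0.368% of all 8695 probe sets tested were called in these directions. At 10 months 1 was called lower, against 0.138% of all, and at 12 months limma called 0, while 2 had an unadjusted p under 0.05 (0.345% of all were called lower and 0.161% higher). In 3 of the 7 every Balb EOM array lay above every SJL EOM array, against 0.759% of all probe sets tested, and in 1 the reverse held, against 0.874%. A probe set that passed the filter only through the groups where it was high had to differ, so the counts describe these genes and support nothing further. In leg muscle no strain difference passed: the 7 differences lay between -0.16 and 0.38 (limma adjusted p 0.911 or above, 0 at an unadjusted p under 0.05), where 0.736% of all were called higher and 0.679% lower. Between the muscles the strain differences were told apart for 0 of the 7 by limma (3 had an unadjusted p under 0.05), where 0.092% of all were called higher. By age limma called 0 in Balb EOM, while 1 had an unadjusted p under 0.05 (6.57% of all were called lower and 1.23% higher), and in SJL EOM 1 was called lower (12.3% of all were called lower and 2.65% higher). For the age difference in SJL minus that in Balb EOM limma called 0, and 0 had an unadjusted p under 0.05.

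**Figure D4:**
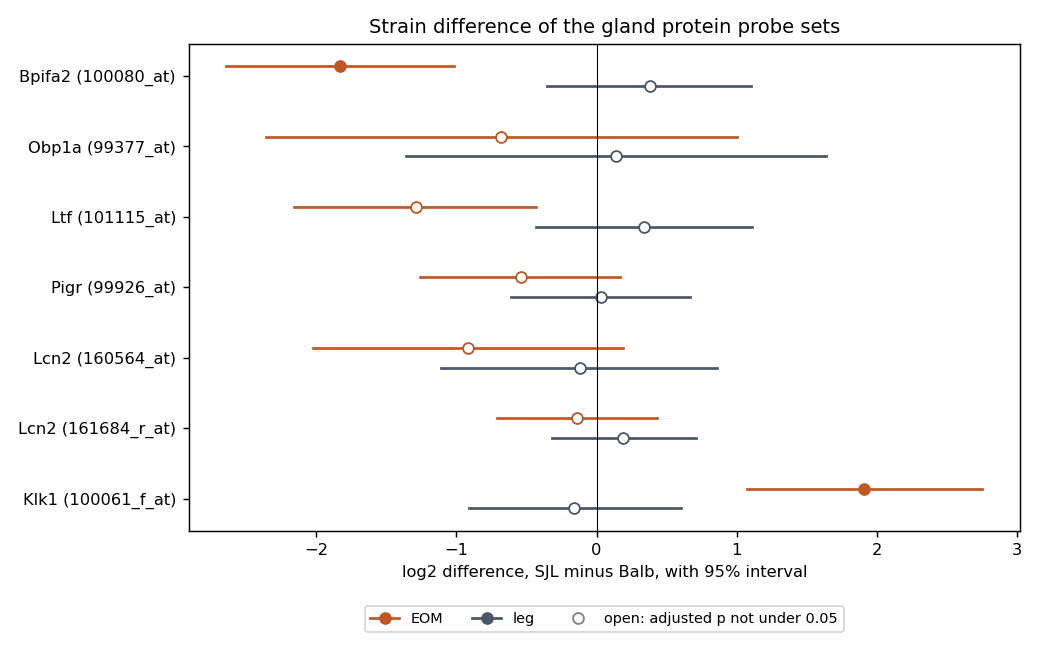
Difference between the strains (SJL minus Balb, log2 scale, with the 95% interval of the fit) in EOM and in leg for the 7 probe sets tested. Filled points passed the test: Bpifa2 at -1.83 and Klk1 at 1.91, both in EOM, while the leg values lie between -0.16 and 0.38.

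Set against leg muscle, the 6 genes fell into 3 kinds. Bpifa2 and Obp1a were high in the EOM of both strains: the EOM minus leg difference was 5.87 in Balb and 3.66 in SJL for Bpifa2, and 6.29 and 5.47 for Obp1a, and every EOM array lay above every leg array (1.38% of all probe sets tested did so, and 0.725% the reverse). For Ltf the EOM arrays lay above all leg arrays of the strain in Balb (2.26) but not in SJL (0.63), and for Klk1 (_f_at) in SJL (2.28) but not in Balb (0.22). Within a strain, every EOM array lay above every leg array for 4.82% of all probe sets tested in Balb and 3% in SJL. For Pigr (0.12 and -0.45) and Lcn2 (0.95 and 0.15 for the _at set, 0.46 and 0.13 for the _r_at set) EOM and leg arrays overlapped in both strains. For Lcn2 (_at) in Balb the overlap rested on 1 leg array, replicate 1 at 10 months at 1072, since the other Balb leg arrays read 61.6 to 261 and the Balb EOM arrays 339 to 559. Without that array the difference was 1.5, without replicate 3 of the same group it was 0.55, and without the 4 arrays with high Actb ratios it was 1.56 (SE 0.37). Without those 4 arrays Ltf in SJL was 0.12. The differences near 0 changed sign under some settings: Pigr in Balb went down to -0.08, Klk1 (_f_at) in Balb to -0.06 and Lcn2 (_at) in SJL to -0.09.

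Other gland products were set beside them. The gene lists used here and below were also chosen with earlier results of these arrays known. Their p-values for EOM against leg are therefore no independent evidence of gland tissue. The same holds for strain in EOM, since lower gland genes in SJL EOM were already known. Their calls and shares there are given as a description. Of 41 listed secretions other than these 6 genes, 23 had a probe set and 11 were tested. In Balb, Muc1 (a membrane mucin of glands and eye surface) and Mup5 rose from leg to EOM, by 3.12 (SE 0.36, limma adjusted p = 1.33e-05) and 4.28 (SE 0.52, adjusted p = 2.37e-05), where 8.72% of all probe sets were called higher and 4.86% lower. Egf, Amy1 and Scgb1a1 went the other way in Balb (-1.01, -0.62 and -0.18) without a call (limma adjusted p = 0.0688, 0.368 and 0.844). In SJL 1 of the 11 was called higher, Mup5, by 2.64 (SE 0.52, limma adjusted p = 0.00291), where 6.14% were called higher and 3.42% lower. Between strains 1 of the 11 was called lower in SJL EOM, Muc1 by 1.87 on the log2 scale (SE 0.38, limma adjusted p = 0.0175). Amy1 (1.14, SE 0.44, limma adjusted p = 0.405) and Egf (0.46, adjusted p = 0.89) went the other way without a call. The list's median was -0.23, against -0.03 over 6454 genes.

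Markers of epithelium were set beside Bpifa2, against a background of 0.564% of all probe sets called lower in SJL EOM. Of 13 tested genes of gland and simple epithelium, 3 were called lower in SJL EOM, with a list median of -0.90. They were Elf3 (an epithelial transcription factor, -1.93, SE 0.36, limma adjusted p = 0.00848), Perp (a desmosome protein, -1.80, adjusted p = 0.0309) and Rab3d (a GTPase of secretory granules, -1.34, adjusted p = 0.0421). Of 16 tested genes of surface epithelium 5 were called lower, led by the keratin Krt6a (-2.48, SE 0.25, limma adjusted p = 9.32e-06), with a median of -0.74. None of either list was called higher. The values above 0 were all in the surface list: Krt12 (1.42, SE 0.56, limma adjusted p = 0.419), Krt1 (0.68), Sprr1b (0.65) and Krt10 (0.35). The summed intensity of the gland epithelium genes was 16200 to 36800 in Balb EOM and 10800 to 29600 in SJL EOM, and overlapped leg (12200 to 29500 in SJL and 15300 to 27800 in Balb). Krt8 read 448 to 1808 in Balb EOM and 126 to 680 in SJL EOM and did not pass (-1.94, SE 0.49, limma adjusted p = 0.0842). Epcam, below the filter, read 140 to 486 and 13.5 to 219. Krt18 read 262 to 743 and 93.5 to 503 (-0.53, limma adjusted p = 0.845), and Cdh1 1188 to 2614 and 1053 to 2918 (-0.18, adjusted p = 0.966). Each of these overlapped between the strains. At 12 months all 5 surface genes were called lower in SJL EOM, where 0.345% of all probe sets were. The median of the 16 was -1.2 at 12 months and -0.28 at 10 months. The gland epithelium list had a median of -1.29 at 12 months, with 1 gene called lower (Elf3), and -0.25 at 10 months, with 0 called. Bpifa2 passed at 10 months and not at 12 months, but its age difference in SJL minus that in Balb EOM did not pass. The part of gland or surface tissue in the Bpifa2 difference was not tested.

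Neutrophil genes were set beside Ltf and Lcn2, which neutrophils also make. Of 10 tested, 1 was called lower in SJL EOM (0.564% of all probe sets were), and the list's median was -0.18. It was Pglyrp1 (a peptidoglycan-binding protein also made by epithelium), lower by 2.98 on the log2 scale (SE 0.41, limma adjusted p = 0.000392). The summed intensity was 10200 to 16500 in Balb EOM, 3170 to 11200 in SJL EOM, 2380 to 9080 in Balb leg and 2150 to 10200 in SJL leg. S100a8 and S100a9 of this list were not called (-0.18 and 0.63, limma adjusted p = 0.991 and 0.968). They read 564 to 4886 and 104 to 2739 in Balb EOM, and 552 to 1979 and 278 to 1215 in SJL EOM. Of 8 tested acute phase and inflammation genes, 1 was called lower, Hp (haptoglobin, -1.09, SE 0.24, limma adjusted p = 0.0386). The part of neutrophils in the Ltf and Lcn2 values was not tested.

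Antibody genes, whose product Pigr carries, did not differ between the strains by the test. Of 10 tested plasma cell and antibody genes, limma called 0 in SJL against Balb EOM, where 1 (Sdc1) had an unadjusted p under 0.05, with a median of -0.26. From leg to EOM in Balb, Igha (the IgA heavy chain) rose by 1.75 (SE 0.43, limma adjusted p = 0.00999) and Jchain (which joins IgA dimers) by 1.20 (SE 0.30, adjusted p = 0.0132), while Ighm fell by 1.87 on the log2 scale (SE 0.41, adjusted p = 0.00528). In that comparison 8.72% of all probe sets were called higher and 4.86% lower. In SJL 1 of the 10 was called, Ighm, at -3.05 (SE 0.41, limma adjusted p = 9.07e-05), where 6.14% of all were called higher and 3.42% lower. Of the kallikrein paralogs 2 of 8 on the array were tested and 1, Klk1b1, was called higher in SJL EOM, as given with Klk1. Of 15 tested muscle identity genes 1 was called higher in SJL EOM, the slow myosin Myh7, by 2.12 (SE 0.35, limma adjusted p = 0.00264). Of all probe sets 0.368% were called higher in SJL EOM.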

How the data were processed

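The authors deposited 1 linear intensity per probe set and array, from total RNA on Affymetrix arrays by the standard protocol per the labels' protocols. Software, background correction and summarization are not given in the sources used here. The 2% trimmed mean was equal across arrays, so no further normalization was applied. Symbols came from GEO's platform annotation: of 12488 probe sets, 66 were controls, 10833 had 1 symbol, 396 several and 1193 none, and 10817 of those with 1 symbol matched the GRCm38.p6 gene table. A probe set annotated with several symbols was named for none.

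Values were taken as log2(intensity + 16), so that the fold of a dim gene is understated. The 30% with the lowest mean were left out and 8695 tested, among them 7 of the 8 probe sets of the 6 genes. A mean for each of 8 groups was fitted with limma 3.58.1 (R 4.3.3; eBayes with intensity trend, 14 residual and 3.63 prior degrees of freedom), two-sided, Benjamini-Hochberg adjusted over all probe sets within each comparison, with a threshold of 0.05. Differences over both ages weight the ages equally. The script was tested on simulated data with 200 of 8695 probe sets changed: for strain in EOM 30% were recovered at a log2 change of 1 and 82.5% at 2.

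The members and lists were chosen with earlier results of these data known. Named beside the members were, per member (its probe set with the highest mean), the 3 tested probe sets of other genes with the highest r over the 10 EOM arrays, up to 4 called genes per list and comparison, and 5 muscle genes. Krt8, Krt18, Epcam, Cdh1, S100a8 and S100a9 were named after their values were seen. Per-array values of Affymetrix sets carry no counts, and the number of arrays limits the precision. Alternatives were pseudocounts of 1 and 64, no filter or 50% left out, quantile normalization, median centring, no trend, only the groups compared, the 4 arrays with high Actb ratios left out, a replicate block and each array left out. Promoter pairs were aligned with Biopython 1.88 and figures drawn with matplotlib 3.10.9 in Python 3.11.15.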

Additional observations from a re-analysis of the deposited data

Results flagged for a closer look

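In SJL leg, 1 of the 6 Pigr values stood far from the others: replicate 1 at 10 months read 14811, against 2352 to 4689 on the remaining arrays. For Lcn2 (_at), replicate 3 at 10 months was low in SJL EOM, at 142 against 215 to 238, and replicate 3 at 10 months was low in SJL leg, at 63.9 against 198 to 286. Groups were judged by the gap to the nearest value over the whole range (Dixon's 95% limit), which chance alone passes in about 1 of 20 groups. The 3 values were given as measured, and their cause was not tested.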

How the results depend on the processing

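The 40 results for single probe sets followed here leave out strain in leg and, for most probe sets, age differences and strain differences at a single age. Over the alternatives they gave 1252 values, of which 17 lost a call, 25 gained one and 1 tested value lost its direction: the strain difference of Lcn2 (_r_at) in EOM was 0.0 without SJL EOM replicate 2 at 10 months (-0.23 to 0.0 over the arrays left out). The other 1209 kept their side of the threshold or, for EOM against leg, which has no test, moved by less than the spread between replicates, but 5 of these values, near 0 and for Klk1 (_f_at) and Pigr in Balb and Lcn2 (_at) in SJL, changed sign. Without the 4 arrays with high Actb ratios, some results outside the 40 changed sign, none with a call. In EOM, Obp1a went from -0.48 to 0.24 for strain at 10 months and from -0.72 to 0.25 for age in Balb. Bpifa2 went from -0.07 to 0.04 for age in Balb, and Ltf from -0.13 to 0.36 for the age difference in SJL minus that in Balb. For strain in leg, Pigr went from 0.03 to -0.1 and Lcn2 (_at) from -0.12 to 0.3. Of the 7 probe sets tested, the number called for strain in EOM was 2 (0 to 2 with 1 array left out), and 1 with 50% left out by mean, a filter that removed Klk1, Obp1a, Ltf and Lcn2 (_at). It was 0 with only the groups compared, and 3 of the 8 probe sets with no filter. At 10 months it was 1 (0 to 1), 2 without the 4 arrays with high Actb ratios and 0 with only the groups compared. At 12 months it was 0 (0 to 0), 1 with only the groups compared, and with no filter 1 of the 8, Klk1 (_i_at), which is not among the 7. For leg minus EOM it was 0 (0 to 1), and 2 without the 4 arrays. By age in Balb EOM it was 0 (0 to 1), 1 with a pseudocount of 64, with 50% left out or without the 4 arrays, and 2 with the replicate block. By age in SJL EOM it was 1 (0 to 3), 2 with a pseudocount of 64, with median centring or without the 4 arrays, 3 with the replicate block and 0 with only the groups compared. For EOM against leg, the genes called of the 3 gland lists numbered 9 in Balb (7 to 10), 16 with no filter, 4 with 50% left out and 14 with the replicate block, and 3 in SJL (2 to 4), 8 without the 4 arrays and 6 with the replicate block. The cause of these shifts was not tested. Over all probe sets the count called for strain in EOM was 81 and ranged from 38 to 729 over all alternatives, arrays left out included, at 10 months 25 (0 to 410), at 12 months 44 (25 to 265), in leg 123 (85 to 713), between muscles 8 (1 to 157), by age 678 (0 to 1900) in Balb EOM and 1297 (0 to 2647) in SJL EOM, and for EOM against leg 1181 (676 to 2923) in Balb and 831 (478 to 2697) in SJL.

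The replicate numbers were not taken as pairing: deviations of same-numbered arrays correlated above 0.1 in 18 of 18 pairs at 10 months (0.26 to 0.774) and in 0 of 12 at 12 months (-0.0809 to 0.0392), and 6 of 12 and 2 of 10 arrays correlated best with their own number. With the replicate block, whose terms sum to 0 within each age, these age differences passed: 1.55 (limma adjusted p = 0.0333) for Bpifa2 and -1.42 (0.000908) for Pigr in SJL EOM, and -0.91 (0.0212) for Pigr and -1.31 (0.0166) for Lcn2 (_r_at) in Balb EOM. The block lies within age, so it takes spread between replicate numbers out of the error of an age difference without pairing the ages. The lone array left where a 12-month EOM array was dropped was assumed to vary like the other groups. The fit of only the groups compared gives no value for differences between muscles.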
